A study of Mus musculus with 10 samples.

Results

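Otx2 is a homeobox transcription factor, and 172 of the 22867 gene symbols measured here were higher in mouse embryonic stem cells (ESCs) when an Otx2 transgene was induced with doxycycline (dox), but were not higher, by the limit given below, in epiblast-like cells (EpiLCs). The members were chosen on FPKM + 1 (FPKM are fragments scaled to transcript length and library depth). The value with dox had to be at least 2.5 times the value without dox, the level with dox at least 5 FPKM, and the mean of 3 EpiLC libraries at most 1.3 times the mean of 3 ESC libraries. Symbols of microRNAs, snoRNAs, Zscan4 genes and keratins, and Otx2, Hesx1, Snai1, Atf3, Acta2 and Dppa3, were left out by name. This removed 21 symbols that met the values, 18 of them small RNAs and the others Atf3, Hesx1 and Snai1. Of the 8607 symbols with at least 5 FPKM with dox, 344 passed the dox part of the rule (4.0%), and 172 of those were over the EpiLC limit. The whole rule was met by 2.00% of these symbols and by 0.752% of all symbols. Since the rule used the dox pair and the EpiLC and ESC libraries, values from those contrasts are given as a description, with no test.

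The study asked how gene expression changes when ESCs become EpiLCs and what loss or overexpression of Otx2 does to it. All 10 libraries came from cultured 129SV mouse ESC lines. The ESCs grew without serum, in the presence of LIF and of inhibitors of MEK (PD0325901, 0.8 µM) and GSK3 (CHIR99021, 3.3 µM), a medium that holds cells in naive pluripotency. EpiLCs were made from them over 48 h with bFGF and knockout serum replacement. Wild-type ESCs gave 2 libraries of the R1 line and 1 of E14. EpiLCs of R1 gave 1 library without activin A and 1 with activin A at 20 ng/ml, and E14 gave 1 whose activin A is not stated. An Otx2-/- line gave 1 ESC and 1 EpiLC library, the latter also with activin A not stated. The same Otx2-/- background carrying a tetON Otx2 transgene gave 1 ESC library without dox and 1 with dox, so both libraries of the dox pair are labelled as lacking the endogenous gene. The labels do not state the dose or duration of dox, the number of clones, or which part of Otx2 is deleted. No library with dox but without the transgene was analysed here, so dox itself and Otx2 cannot be told apart. The dox libraries numbered 1 against 1 and carry no replicate check.

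Otx2 is present in the epiblast around implantation and is later needed for the forebrain, the eye and the pineal gland. Its homeodomain belongs to the bicoid class, whose members bind DNA around the core TAATCC, and the related factor Crx uses the same core in photoreceptors. EpiLCs stand for the early post-implantation epiblast, in which endogenous Otx2 is on.

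Otx2 had 5.72, 9.09, 3.96, 7.85, 45.8 and 1059 FPKM in ESC and 107, 151, 39.9 and 15.8 in EpiLC. These are given in the order used throughout, which for ESC is R1 replicate 1, R1 replicate 2, E14, Otx2-/-, tetON without dox and tetON with dox, and for EpiLC is R1 without activin A, R1 with activin A, E14 and Otx2-/-. Otx2 was thus above the ESC libraries without the transgene already without dox, and with dox it was far above the EpiLC libraries. Without dox it was also above E14 and Otx2-/- EpiLC and below the R1 EpiLC libraries, so the dox pair started from a level within the EpiLC range. Reads in the Otx2-/- libraries were not assigned to exons here, so these values do not check the deletion. Approximate depth, from the 25th percentile of values above 0 in olfactory receptor genes, was between 6.52M and 20.6M fragments per library (M, mega), with 9.16M for the library with dox and 15.1M for that without. At 5 FPKM a transcript of 1 kb then rested on about 45.8 fragments with dox, and on between 32.6 and 102.8 over the libraries. Summed FPKM ranged from 585995 to 680016, and between 11409 and 12134 symbols reached 1 FPKM. Of the naive pluripotency genes 17 were found, and all 17 reached 1 FPKM in every ESC library.

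Across the 172 members the median ratio of FPKM + 1 with dox to without dox, called the dox ratio from here, was 3.80. It was under 4 in 91 members, at least 5 in 50 and at least 10 in 20. These counts include 8 entries listed at 0 without dox, described below, without which 42 were at least 5, 12 were at least 10 and the median was 3.75. The median level was 2.47 FPKM without dox and 14.4 with dox. With dox, 57 members were under 10 FPKM, 102 were between 10 and 100, and 13 were at 100 or above. The library with dox was the highest of all 10 for 159 members (92.4%), against 22.6% of all symbols with at least 5 FPKM with dox, which the rule favours and which is given as a description. For 135 members it was at least 2 times the next highest library.

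**Figure D1:**
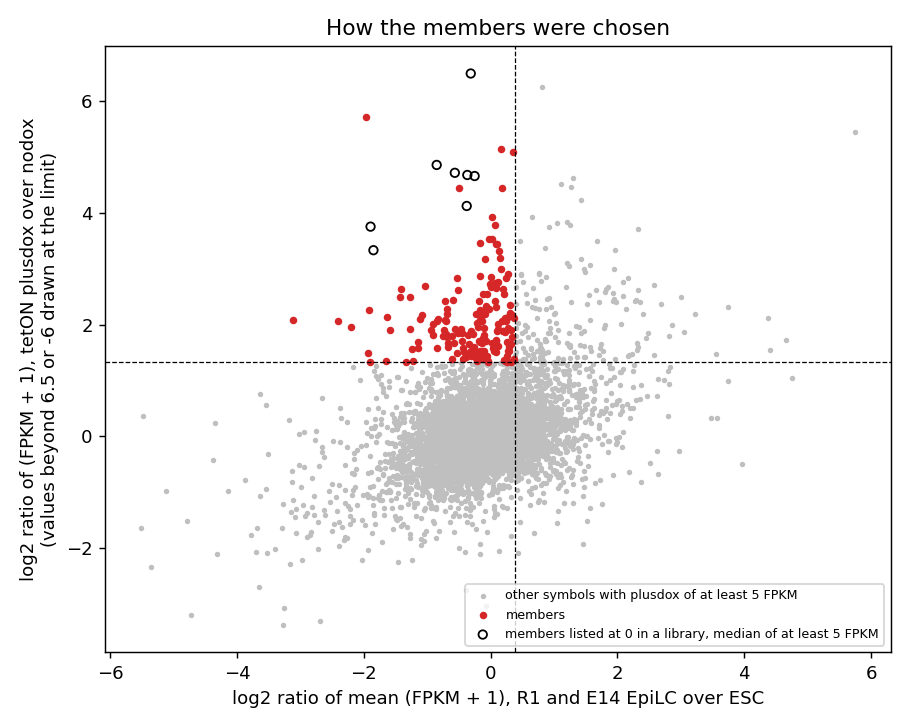
Each symbol with at least 5 FPKM with dox is placed by its log2 ratio of FPKM + 1 for EpiLC over ESC of R1 and E14 on the horizontal axis and for dox over no dox on the vertical axis, with the 172 members in red, the 8 of them listed at 0 without dox as open circles, other symbols in grey, and the 2 ratio thresholds as dashed lines (vertical values over 6.5 are drawn at 6.5). The members fill the upper left of the plot, with 57 of them at an EpiLC ratio of 1 or above and 24 at 0.5 or below.

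At the edge of the dox threshold, Slc1a1, A2m and Kctd10 lay just inside with dox ratios of 2.502, 2.511 and 2.512. Sap30l, Fam115a and Lgals1 lay just outside with dox ratios of 2.497, 2.490 and 2.488. At the EpiLC limit, the ratios of EpiLC to ESC were 1.290 for Slc37a2, 1.286 for Mapre3 and 1.271 for Sept4 inside, and 1.304 and 1.315 for Hexdc and Sat2 outside, next to Scand1, which was barely over the limit. At the level threshold, Gm4303, Fez1 and Dnm1 had 5.15, 5.16 and 5.22 FPKM with dox, while C130026I21Rik, Fam171a1 and Lat2 had 4.82, 4.70 and 4.63. The members just inside and outside each threshold thus differed by little, and membership is a matter of degree there.

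By a grouping made after the values were seen, 8 members were placed with the eye. The group is loose, as Dmbx1 is of the early brain and Crxos1 is only named for its position next to an eye gene. Impdh1, which makes an enzyme of guanine nucleotide synthesis that is abundant in photoreceptors, lies on chromosome 6 (chr6:29150439-29162271 in mm9). In ESC it had 29.1, 26.2, 34.8, 26.0, 25.5 and 291 FPKM, and in EpiLC 26.0, 23.6, 30.4 and 27.1. The library with dox stood 8.37-fold above the highest of the other 9, which lay close together. Unc119 carries lipid-modified signalling proteins in photoreceptors. The ESC libraries gave 18.0, 17.4, 19.1, 17, 24.3 and 109 FPKM and the EpiLC libraries 23.0, 23.1, 18.0 and 20.3. Again dox gave the highest value, at 4.48 times the next. Crxos1 is named for its position opposite the photoreceptor gene Crx. Crxos1 stood at 8.26, 16.6, 17.7, 28, 38.8 and 190.4 FPKM in ESC and at 2.54, 2.90, 3.61 and 2.88 in EpiLC. Its EpiLC values were all below its ESC values. Crx itself had 0.719 FPKM without dox and 0.915 with dox.

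Sag and Samd7 were near 0 everywhere but with dox. Sag makes an arrestin of photoreceptors, which ends the response to light. The level of Sag was 0.0878, 0.0805, 0.0292, 0.0376, 0.0235 and 5.51 FPKM in ESC and 0.0412, 0.0224, 0.132 and 0.0552 in EpiLC. Samd7 makes a nuclear repressor of photoreceptors. Its FPKM values were 0.0451, 0.0922, 0.170, 0.0962, 0.164 and 5.78 in ESC and 0.0687, 0.0754, 0.0309 and 0.119 in EpiLC. For both, the 9 other libraries were under 0.2 FPKM. Rlbp1, the retinaldehyde-binding protein of the pigment epithelium and Müller glia, was already measurable in every library. In ESC it had 4.53, 5.23, 7.22, 7.81, 6.53 and 20.4 FPKM, and in EpiLC 5.23, 5.35, 3.80 and 2.75. Its dox ratio was 2.85, among the lower ones of the set. Dmbx1, a homeobox gene of the early brain, had 0.949 FPKM without dox and 7.38 with dox. Rab38, a small GTPase of pigment granules, had 4.91 and 21.1. It also differed between the R1 ESC replicates, with 13.0 in replicate 1 and 2.54 in replicate 2.

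Defining photoreceptor genes such as Nrl and Rbp3 were not among the members. Nrl, the rod-determining factor, had 0.0806 FPKM without dox and 0.255 with dox. Rbp3, which carries retinoids between photoreceptors and pigment epithelium, had 0.0139 and 0.697. Of a list of 20 retina and pigment epithelium genes, 3 reached 5 FPKM in either library of the dox pair, 1 was at least 2-fold higher with dox (Rlbp1) and 1 at least 2-fold lower (Mitf). Over all symbols with 5 FPKM in either library of the pair, 6.42% were at least 2-fold higher and 5.71% at least 2-fold lower with dox. The summed level of that list was 34.5 FPKM without dox and 39.8 with dox, and lay between 31.1 and 74.2 in the ESC libraries without the transgene.

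**Figure D2:**
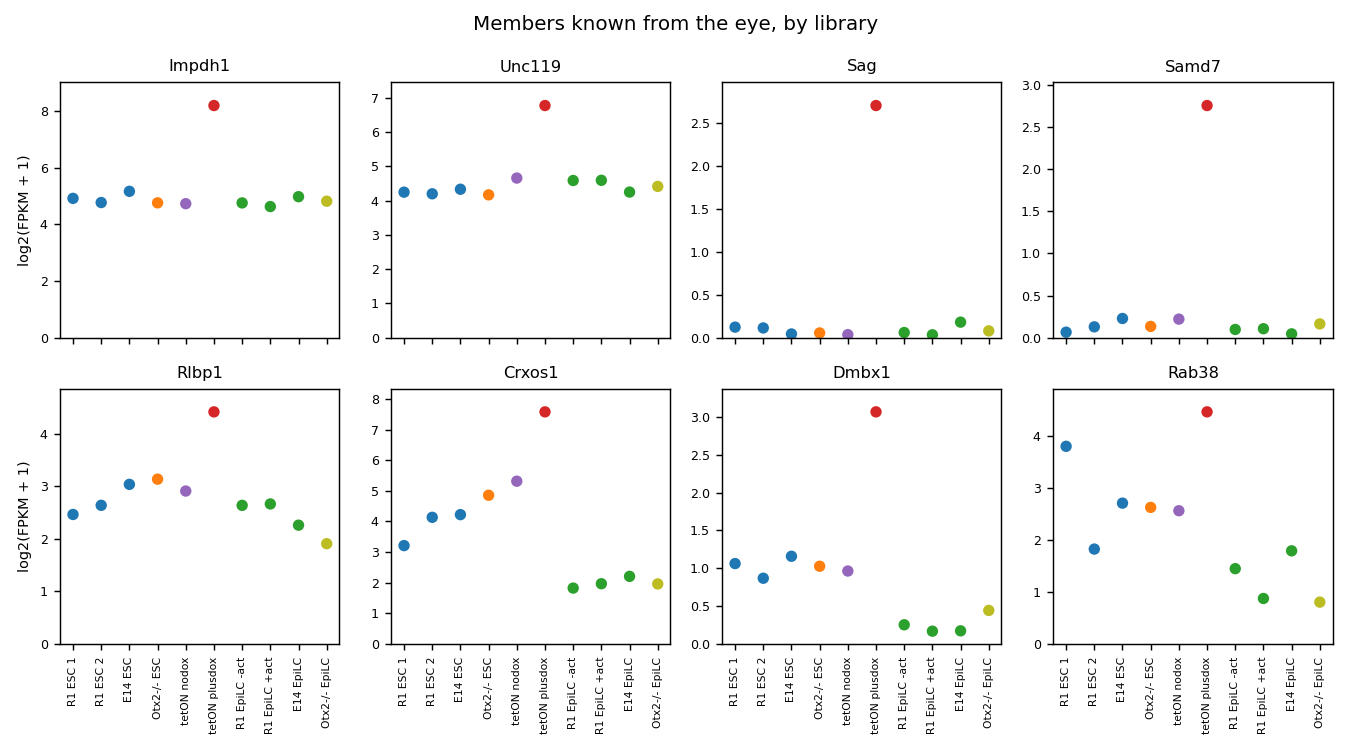
Each panel is 1 of the 8 members placed with the eye, with log2(FPKM + 1) on the vertical axis and 1 dot for each of the 10 libraries (blue R1 and E14 ESC, orange Otx2-/- ESC, purple no dox, red dox, green R1 and E14 EpiLC, olive Otx2-/- EpiLC). The library with dox is the highest dot in all 8 panels.

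The promoters of 3 eye-related members hold the bicoid core, and they are printed here because the core is the one Otx2 is known to bind. RefSeq promoter windows of 300 bases (250 before to 50 after the start, build GRCm38.p6) were found for 129 of the 172 members, 10 of them through a synonym. TAATCC was searched on both strands, where the reverse strand reads GGATTA. It was in the windows of 14 of the 129 matched members (10.9%) and in 8.14% of all 27025 symbols of the table. When TAATCT was taken as well, the shares were 15.5% and 16.3%. Within the 250 bases before the start, TAATCC was in 8.53% of the matched members and 7.21% of all symbols. Among the 7 matched members placed with the eye 3 had the core, and among the 19 matched members under 1 FPKM in all other libraries 4 had it. Sag and Samd7 are counted in each of these subsets, and the eye group was made after the values were seen. Stretches of 66 bases around the core in the 3 eye genes follow, 5′ to 3′ on the strand of the gene, with the core in capitals and its distance before the start.
Sag, chr1:87803563-87803628, + strand, 87 bases before the start: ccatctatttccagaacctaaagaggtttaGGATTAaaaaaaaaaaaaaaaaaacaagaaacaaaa
Samd7, chr3:30746124-30746189, + strand, 139 bases before the start: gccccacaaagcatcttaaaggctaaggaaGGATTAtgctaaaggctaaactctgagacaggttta
Unc119, chr11:78345436-78345501, + strand, 118 bases before the start: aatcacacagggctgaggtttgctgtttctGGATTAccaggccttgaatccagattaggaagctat
In all 3 the core was read on the reverse strand. A match is a description of these letters, and binding at these places was not measured in these data.

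In all, 24 members were under 1 FPKM in all 9 libraries other than the one with dox, where they reached between 5.27 and 37.4 FPKM. Besides Sag, Samd7 and others named below, they were led by Pcp4 and Sept4. Pcp4 makes a small calmodulin-binding peptide known from Purkinje cells. The ESC libraries gave 0, 0, 0, 0, 0 and 34.4 FPKM and the EpiLC libraries 0.375, 0, 0 and 0. Sept4 makes a septin, a filament protein found in sperm tails and brain. Sept4 stood at 0.135, 0.316, 0.126, 0.137, 0.124 and 37.4 FPKM in ESC and at 0.885, 0.420, 0.240 and 0.119 in EpiLC. Both stood alone with dox, and the next value of Sept4 was that of R1 EpiLC without activin A. Epx, the eosinophil peroxidase, had 22.1 FPKM with dox and at most 0.269 elsewhere. Fam107a, a gene of brain and of the glucocorticoid response, had 17.1 with dox and at most 0.272 elsewhere. The other members of the 24 were Clec10a, Rbm24, Kcnk3, Ephb1, Nbl1, Celf6, Aqp9, Arsi, Khdc1a, Ntng2, Fgg, Acoxl, Prf1, Lcp1, Foxa1, 4930506M07Rik, Fabp6 and Echdc3. By their known sites of expression these genes span brain, blood, liver, gut and muscle. Since 1 is added to each value, the EpiLC limit of the rule says little about these 24 members. In some of them, such as Epx and Sept4, the EpiLC mean exceeded 1.3 times the ESC mean before 1 was added.

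Genes known from neurons and secretory cells made up 16 members. Kcnk3, a leak potassium channel, was at 13.6 FPKM with dox and at most 0.263 elsewhere. Ephb1, a receptor of ephrins, was at 11.9 with dox and at most 0.187 elsewhere, and its ligand class was present through Efnb3, which went from 2.14 to 10.7. Axon guidance was also represented by Robo1, the Slit receptor, and Rgma. The level of Robo1 was 7.65, 4.30, 4.11, 4.53, 3.81 and 29.0 FPKM in ESC and 1.12, 1.38, 1.66 and 1.32 in EpiLC. Rgma had 2.23 without dox and 12.7 with dox. Both were lower in EpiLC than in ESC, with EpiLC ratios of 0.375 and 0.606. The neuronal RNA-binding protein Celf6 had 9.89 FPKM with dox and at most 0.354 elsewhere, and the adhesion protein Ntng2 had 6.33 and at most 0.233.

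The other members of this group were already present in ESCs. Trh, the precursor of thyrotropin-releasing hormone, had the lowest EpiLC ratio of all members, 0.115. Its FPKM values were 764, 27.0, 68.9, 55.9, 70.3 and 302 in ESC and 14, 16.8, 65.7 and 80.0 in EpiLC. The R1 ESC replicates lay further apart than the dox pair, and replicate 1 was above the library with dox. Among EpiLCs, R1 was lower than E14 and Otx2-/-, and Otx2-/- EpiLC was above Otx2-/- ESC. Dpysl3, a protein of growing axons, was also lower in EpiLC. In ESC it had 20.0, 9.76, 6.74, 9.43, 5.71 and 25 FPKM, and in EpiLC 2.47, 2.54, 0.599 and 0.817. With dox it was just above R1 ESC replicate 1, and all 4 EpiLC libraries were under 5 FPKM. Chga, which makes the granule protein chromogranin A, had 6.62 and 25.9, and the inward rectifier channel Kcnj12 had 3.71 and 12.3. Of a list of 15 neuronal genes found, 8 reached 5 FPKM, 1 was at least 2-fold higher with dox (Nes) and 4 at least 2-fold lower (Tubb3, Stmn2, Stmn3 and Nefm). Of 20 anterior neural genes 3 reached 5 FPKM, and all 3 (Sox21, Sfrp1 and Fzd5) were at least 2-fold lower.

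Members known from blood and immune cells numbered 10, and those from liver, gut and other endoderm also 10. Clec10a, a lectin of macrophages, had 16.8 FPKM with dox and at most 0.299 elsewhere. Prf1, the pore-forming protein of cytotoxic cells, had 5.63 and at most 0.528, and Lcp1, the actin-bundling protein of leukocytes, 8.01 and at most 0.542. Npl, an enzyme of sialic acid breakdown, was present in every library. The ESC libraries gave 6.09, 15.8, 8.65, 5.10, 4.47 and 34.2 FPKM and the EpiLC libraries 4.03, 5.76, 3.57 and 0.904. Its highest value was that with dox and its lowest that of Otx2-/- EpiLC. Ccl3, a chemokine, had 1.1 and 7.10 FPKM without and with dox, and Ccl25 had 2.89 and 13.6.

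Foxa1, a pioneer factor of endoderm, went from 0.400 FPKM without dox to 5.99 with dox. Of a list of 24 endoderm and visceral endoderm genes, 6 reached 5 FPKM, 2 were at least 2-fold higher (Foxa1 and Lamb1) and 1 at least 2-fold lower (Lama1). Aqp9, the glycerol channel of liver, had 8.95 FPKM with dox and at most 0.137 elsewhere, and the fibrinogen chain Fgg had 6.0 and at most 0.327. The protease inhibitor A2m was present in ESC and low in EpiLC. A2m stood at 4.09, 19.3, 15.5, 14.9, 11.6 and 30.6 FPKM in ESC and at 3.07, 3.71, 1.46 and 0.943 in EpiLC. The library with dox was the highest, with R1 ESC replicate 1 far below replicate 2. The entry shared by Lgals4 and Lgals6, gut galectins, had 13.2 and 56.9 FPKM. These are close copies, so their reads cannot be assigned to one of them.

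Genes of muscle and the actin cytoskeleton gave 9 members. Cnn2, a calponin that binds actin, was the most abundant of them. The level of Cnn2 was 19.4, 16.2, 22, 13.3, 14.5 and 101 FPKM in ESC and 20.2, 15.1, 22.1 and 9.33 in EpiLC. With dox it was 4.58 times the next library, and Otx2-/- EpiLC was the lowest. Rbm24, an RNA-binding protein of heart and muscle, had 11.1 FPKM with dox and at most 0.176 elsewhere, and Cacna1s, the calcium channel subunit of skeletal muscle, had 1.74 without and 8.62 with dox. Of a list of 20 actin, SRF and YAP target genes, 15 reached 5 FPKM and 5 were at least 2-fold higher with dox (Cnn2, Myl9, Tpm2, Tpm4 and Zyx), with none at least 2-fold lower. The median log2 ratio of that list was 0.65, against -0.06 over all symbols with 5 FPKM in the pair. Only Cnn2 of these was a member, so the others missed at least 1 part of the rule.

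Enzymes and carriers of lysosome, redox and lipid metabolism gave 14 members, and these included some of the most abundant. Glrx, a glutaredoxin that reduces protein disulphides, had 35.8 FPKM without dox and 165 with dox, and its mitochondrial relative Glrx2 10.5 and 32.3. Atp6v1a, a catalytic subunit of the proton pump of lysosomes, went from 52.9 to 139, and Lrpap1, a chaperone of lipoprotein receptors, from 39.2 to 138. Ctsc, a lysosomal protease, had 10.4 and 44.9. In all 14 the library with dox was the highest of the 10. Agpat9, an acyltransferase of glycerolipid synthesis, had the largest dox ratio among them, 10.9.

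Signalling genes gave 10 members. Cited1, a transcriptional co-regulator, had a dox ratio of 21.8. Its FPKM values were 2.27, 1.69, 0.887, 0.985, 0.451 and 30.6 in ESC and 1.59, 0.648, 0.335 and 0.338 in EpiLC. Nbl1, a secreted BMP antagonist, had 11.2 FPKM with dox and at most 0.357 elsewhere. The ligand Bmp7 had 5.18 and 15.7, and the TGF-beta co-receptor Tgfbr3 0.710 and 7.22. Of a list of 9 BMP target genes, which holds none of these members, 5 reached 5 FPKM, 2 were at least 2-fold lower with dox (Smad6 and Smad7) and none at least 2-fold higher. Dusp14, a phosphatase of MAP kinases, had 5.49 and 35.5.

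Igf2bp1, which binds and stabilises mRNAs, was the most abundant protein-coding member with dox. In ESC it had 165, 151, 265, 153, 115 and 485 FPKM, and in EpiLC 153, 59.7, 112 and 161. It was present in every library and highest with dox. Tmem165, a Golgi ion transporter, had 52.5 and 180.2 FPKM. Wfdc2, a secreted protease inhibitor, varied among the ESC libraries. The ESC libraries gave 2.46, 17, 10.6, 15.7, 35.9 and 154 FPKM and the EpiLC libraries 7.62, 6.21, 3.40 and 3.72. Its R1 replicates and the library without dox were spread over several-fold, below the library with dox.

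Altogether 87 members were placed in none of the role groups. Their median dox ratio was 3.47, close to that of all members, and in 78 of them the library with dox was the highest of the 10. Arsi, a sulfatase, was among those near 0 elsewhere, with 8.35 FPKM with dox and at most 0.462 in any other library. Dio3, the enzyme that inactivates thyroid hormone, is an imprinted gene. Dio3 stood at 1.16, 0.589, 0.827, 1.01, 2.51 and 20.7 FPKM in ESC and at 0.348, 0.343, 0.217 and 0.168 in EpiLC. Slc45a3, a sugar transporter known from prostate, had 2.37 FPKM without dox and 23.1 with dox. The homeobox gene Lmx1a, known from midbrain dopamine neurons, had 1.57 and 6.04.

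Pmp22, a protein of peripheral myelin, had 1.07 FPKM without dox and 6.62 with dox. Cxadr, a junction protein that serves as receptor of coxsackievirus and adenovirus, had 7.43 and 28.9. Cd59a, which protects cells from complement, had 4.62 and 23.8. Anxa1, a calcium-dependent binder of phospholipid, differed among the wild-type ESC libraries as well. The level of Anxa1 was 8.0, 1.34, 1.55, 1.34, 2.02 and 10.5 FPKM in ESC and 1.08, 0.531, 1.17 and 0.513 in EpiLC. In R1 ESC replicate 1 it was well above replicate 2. Of the chromatin proteins, Hmgn3, a nucleosome-binding protein, had 2.28 and 9.60, and Baz1a, a subunit of a remodelling complex, had 7.86 and 25.4.

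**Figure D3:**
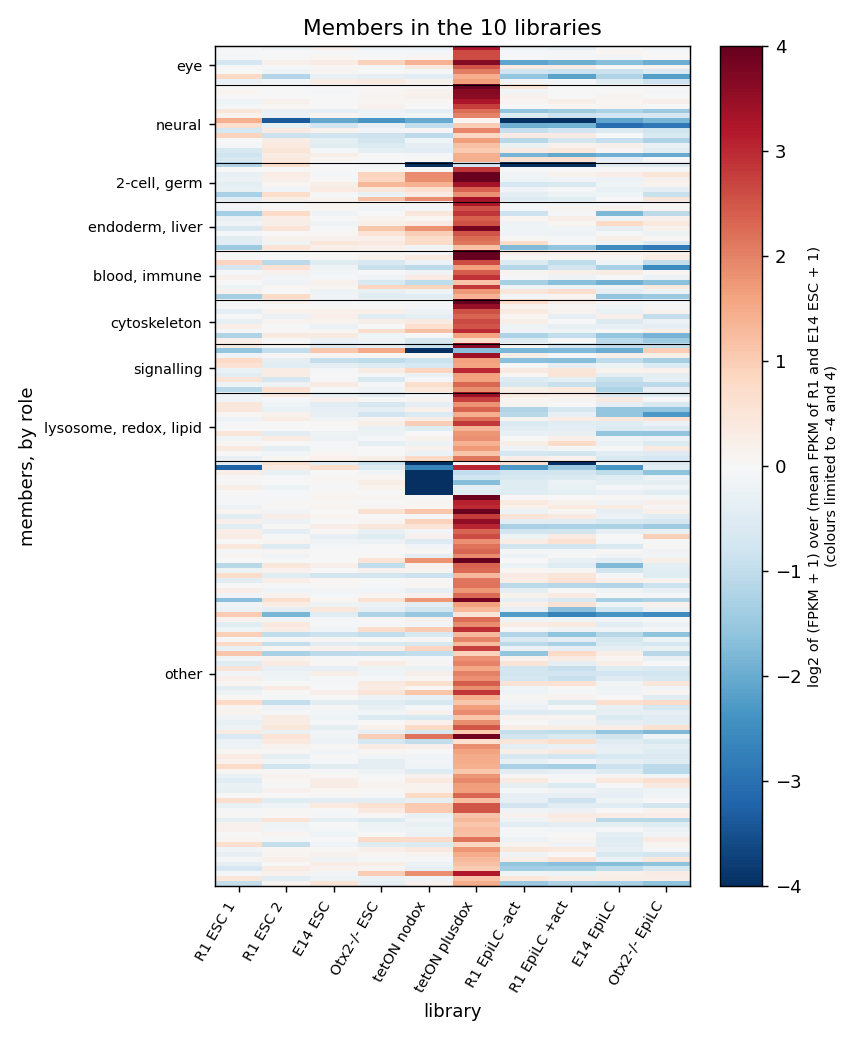
Rows are the 172 members by role and columns the 10 libraries, and the colour gives the log2 ratio of FPKM + 1 to the mean of the 3 R1 and E14 ESC libraries, from blue (lower) to red (higher) and limited to 4 either way. The column with dox is red for most rows, and the dark blue cells without dox are the entries listed at 0.

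Some members had a value without dox that stood apart from most other libraries. Rn45s, Trim25, Tet1, Ppp1r12a, Trappc8, Rnf17, Rcan3 and the entry shared by Lrch4 and Sap25 were listed at 0 without dox while their median over the 10 libraries was at least 5 FPKM. Rn45s was also listed at 0 in R1 EpiLC with activin A, and Rnf17 in R1 EpiLC with and without activin A. Tet1, the methylcytosine oxidase of pluripotent cells, shows the pattern. Its FPKM values were 78.8, 82.3, 84.7, 97.1, 0 and 24.7 in ESC and 58.6, 69.3, 61.9 and 64.0 in EpiLC. Apart from the 0, the library with dox was lower than the Otx2-/- ESC library. This was so for all 7 of these entries other than Rn45s, the ribosomal RNA precursor, which is not a polyadenylated transcript. An exact 0 of this kind can be a failed estimate, so no fold is given for these 8 entries, and 164 members remain without them. Hipk3, a protein kinase, was erratic without being at 0. In ESC it had 2.62, 42.4, 53.9, 22.3, 4.29 and 279.6 FPKM, and in EpiLC 5.94, 11.5, 5.65 and 24.0. The R1 ESC replicates alone were 2.62 and 42.4.

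These 8 entries were among the 13 members for which the library with dox was not the highest. The other 5 were Trh, Cd24a, Dgcr8 and Nnat, which were higher in R1 ESC replicate 1, and Rcn3, which was higher in R1 EpiLC with activin A. Of the 172 members, 153 were also at least 2.5 times higher with dox than in the Otx2-/- ESC library that has no transgene, against 5.57% of all symbols with at least 5 FPKM with dox. That comparison shares the library with dox with the rule, so it is not independent of it.

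Genes of the 2-cell embryo and of germ cells gave 8 members by the grouping used here. A small share of cultured ESCs passes through a state that resembles the 2-cell embryo, and in bulk libraries fewer cells of a type and less RNA per cell cannot be told apart. Sp110, a nuclear body protein used as a marker of that state, lies on chromosome 1. The interval listed for it (chr1:87473474-87541611 in mm9) lies wholly within that of the Sp140 entry, so it is not the position of Sp110 alone. For Sp110 the ESC libraries gave 0.648, 1.5, 0.948, 2.78, 6.48 and 49.8 FPKM and the EpiLC libraries 0.870, 1.3, 1.47 and 1.86. R1 and E14 ESC were the lowest of the ESC libraries, Otx2-/- ESC and the library without dox were between, and the library with dox was the highest. Dub1, a deubiquitinase, followed the same order. Dub1 stood at 0.851, 1.54, 1.86, 5.09, 5.31 and 23.0 FPKM in ESC and at 0.510, 0.588, 1.14 and 1.67 in EpiLC. Dux, the homeobox gene that switches on many genes of the 2-cell stage, did so too, within repeated sequence where reads of its copies cannot be told apart. The level of Dux was 0.187, 0.890, 0.780, 2.67, 5.05 and 15.4 FPKM in ESC and 0.103, 0.192, 0.615 and 1.3 in EpiLC.

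Dazl, an RNA-binding protein of germ cells, did not share that order. Its FPKM values were 2.14, 11.7, 6.53, 5.51, 8.86 and 26.8 in ESC and 5.02, 5.78, 5.86 and 3.24 in EpiLC. Its level in the library without dox was below that of R1 ESC replicate 2. Spesp1, a sperm membrane protein, had 4.24 FPKM without and 27.2 with dox, Eif4e1b, a cap-binding protein of oocytes, 1.37 and 6.55, and Khdc1a, an RNA-binding protein of oocytes, 0 and 6.24. Arg2, the mitochondrial arginase, is on the list of 2-cell-like genes and had 3.77 and 11.1. Of the 11 genes of that list 7 reached 5 FPKM, and 3 were at least 2-fold higher with dox (Sp110, Tmem92 and Arg2) and none at least 2-fold lower. Of 14 germline genes found, 6 reached 5 FPKM, with 3 at least 2-fold higher (Dazl, Mael and Sycp3) and 1 at least 2-fold lower (Stra8).

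The order seen for Sp110, in which the library without dox was above Otx2-/- ESC and this in turn above all 3 R1 and E14 ESC, was met by 29 members (16.9%), against 5.50% of all symbols with at least 5 FPKM with dox. Besides Sp110, Dub1 and Dux they included Spesp1, Eif4e1b, Arg2, Gm11544, Gm11545 and Trim75, and also Crxos1 of the eye group. Kcnk3, Ephb1 and Clec10a were counted too, but by small differences near 0, as no floor was set on these levels. Kcnk3 had 0.222 FPKM in Otx2-/- ESC and 0.263 without dox, Ephb1 0.143 and 0.178, and Clec10a 0.120 and 0.299. Zscan4c, which marks the 2-cell-like state and is not a member, had the same order. Zscan4 genes were left out by name, but Zscan4c also missed the dox threshold. Its log2 dox ratio was 0.937, against at least 1.32 in the members. In ESC it had 1.22, 3.19, 2.18, 9.26, 11.7 and 23.3 FPKM, and in EpiLC 0.245, 0.330, 0.844 and 2.41. In it the library with dox was the highest, and the EpiLC libraries of R1 and E14 were under 1 FPKM. Since 3 of the groups in this order are what the rule used or share its libraries, the count carries no test. Zscan4c moved with these members across the ESC libraries, and its part in their values was not tested.

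**Figure D4:**
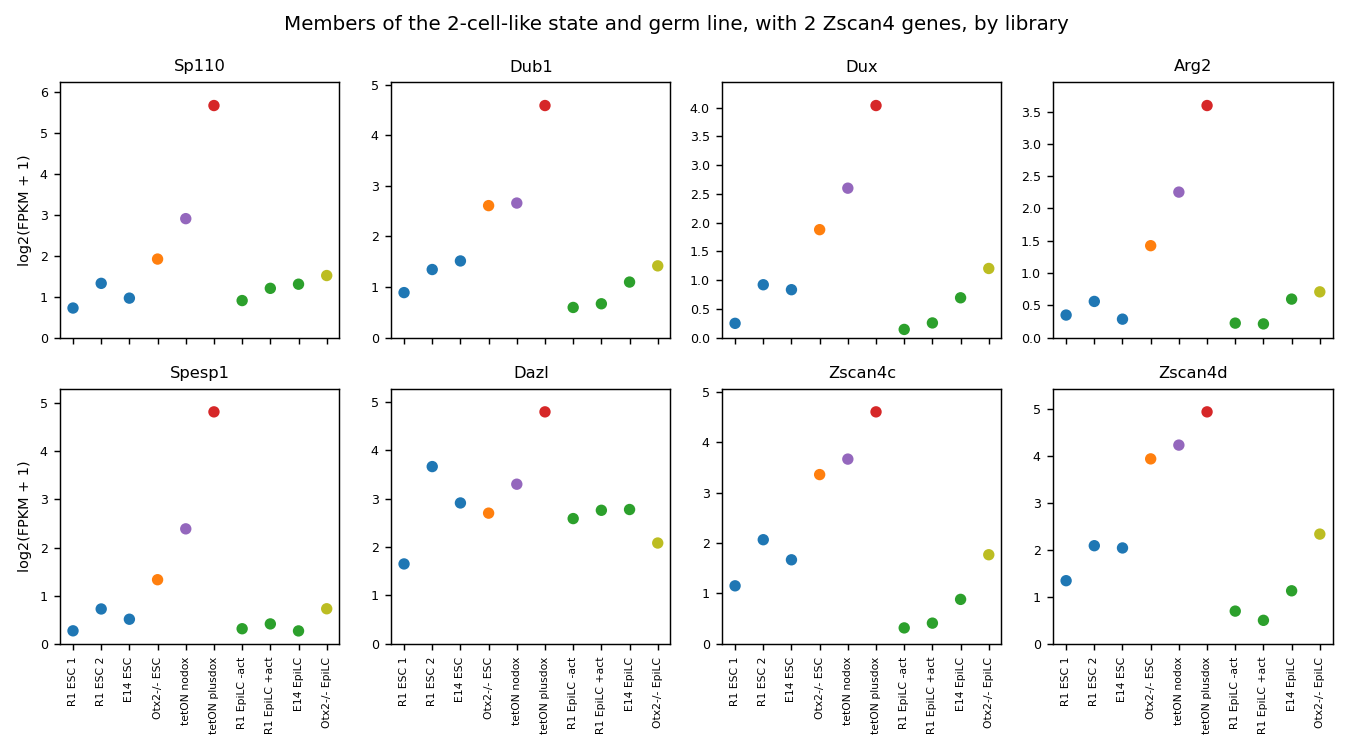
The panels are 6 members of the 2-cell-like state and germ line and, for comparison, Zscan4c and Zscan4d, with log2(FPKM + 1) on the vertical axis and 1 dot per library (blue R1 and E14 ESC, orange Otx2-/- ESC, purple no dox, red dox, green R1 and E14 EpiLC, olive Otx2-/- EpiLC). In all panels but Dazl the dots of the ESC libraries climb from R1 and E14 through Otx2-/- and no dox to dox.

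In EpiLCs the members were close to their ESC level or below it, as the rule required, and its limit of 1.3 was also met by 84.1% of all symbols with at least 5 FPKM with dox. The median EpiLC ratio was 0.894, with 24 members at 0.5 or below, 91 between 0.5 and 1, and 57 at 1 or above. All 3 R1 and E14 EpiLC libraries were below all 3 ESC libraries in 46 members (26.7%), against 28.3% of all symbols with at least 5 FPKM with dox. The lowest EpiLC ratios were those of Trh, Cd24a, Dpysl3, Hipk3, Crxos1, Kcnj12, Rnf17 and A2m, between 0.115 and 0.269. That of Rnf17 rests on values listed at 0 in R1 EpiLC with and without activin A, which can be failed estimates. E14 EpiLC had 15.6 FPKM of Rnf17 and Otx2-/- EpiLC 14.9. Cd24a, a surface glycoprotein of immature cells, was also among the lowest ratios. The ESC libraries gave 53.5, 6.64, 18.2, 10.6, 8.39 and 38.1 FPKM and the EpiLC libraries 4.72, 3.28, 4.33 and 3.77. Its R1 ESC replicates differed by more than the dox pair did.

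The Otx2-/- ESC and EpiLC libraries played no part in the rule, but their ratios follow those of R1 and E14, which did. From Otx2-/- ESC to Otx2-/- EpiLC, the ratio of FPKM + 1 was at most 1.3 in 160 of the 172 members (93.0%), against 82.6% of all symbols with at least 5 FPKM with dox and 91.9% of those that met the EpiLC limit in R1 and E14. The share is thus close to that of symbols chosen by the same limit. Of the 59 members with 5 FPKM in either library, 14 were at least 2-fold lower in EpiLC (8.47% of all symbols, and 9.96% of those that met the EpiLC limit) and 2 at least 2-fold higher (6.99% and 1.19%). The lowest log2 ratios among these 59 were -3.03 for A2m, -2.90 for Crxos1, -2.52 for Dpysl3, -1.82 for Wfdc2 and Rab38, and -1.68 for Npl. The 2 that were higher were Ppp1r1a at 1.44 and Cachd1 at 1.18. Ppp1r1a is an inhibitor of protein phosphatase 1. Ppp1r1a stood at 7.59, 5.77, 4.48, 3.97, 6.86 and 41.0 FPKM in ESC and at 5.06, 7.78, 5.98 and 12.5 in EpiLC. Otx2-/- EpiLC was thus second only to the library with dox. Across the members, the log2 ratio of EpiLC to ESC in Otx2-/- and in R1 and E14 had a Pearson correlation of 0.60, described over 172 genes that are not independent. In 15 members the ratio was at most 0.5 in both.

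**Figure D5:**
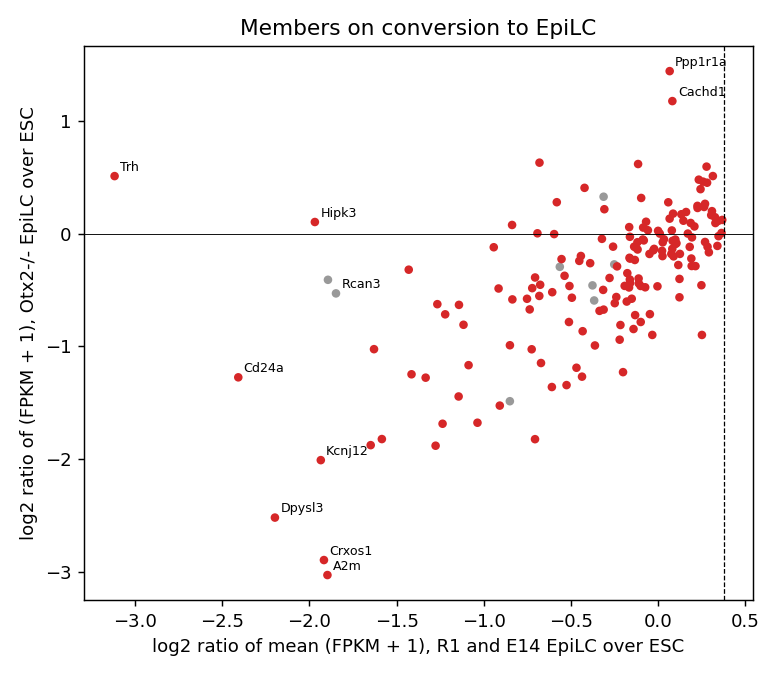
Each member is placed by its log2 ratio of EpiLC over ESC in R1 and E14 on the horizontal axis and in Otx2-/- on the vertical axis, with entries listed at 0 in grey and the EpiLC limit of the rule as a dashed line. Crxos1, A2m and Dpysl3 lie low on both axes, and Ppp1r1a lies highest on the vertical one.

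The Otx2-/- libraries were compared with R1 and E14 by limma on log2(FPKM + 1) over 8 libraries. Each lone Otx2-/- library is assumed to vary like the R1 and E14 libraries. The spread of each gene was pooled over ESC and EpiLC, so the EpiLC comparison also carries the spread between the R1 ESC replicates. The R1 and E14 libraries also entered the rule, so these comparisons are not independent of how the members were chosen, that of the differentiation response least of all. Of the 172 members, 120 had a mean of at least 1 FPKM and were tested among 12271 genes. No member passed a Benjamini-Hochberg adjusted p of 0.05 in ESC, in EpiLC or for the difference in differentiation response. Over all genes limma called 11 higher (0.0896%) and 6 lower (0.0489%) in Otx2-/- ESC, 17 higher (0.139%) and 3 lower (0.0244%) in Otx2-/- EpiLC, and 22 (0.179%) and 12 (0.0978%) for the difference in response. At an unadjusted p under 0.05, 4 of the 120 members had higher and 1 a lower value in Otx2-/- ESC (background 1.08% for both directions), and 2 had higher and 6 lower values in Otx2-/- EpiLC (background 3.59%). Without the E14 EpiLC library, more members and also more of all genes fell under that threshold, in EpiLC and in differentiation response. The same held in ESC without the filter on low values. It also held in EpiLC without R1 ESC replicate 1 or with line as a covariate, among other settings. The backgrounds given here are those of the main setting only. For the difference in response the counts were 1 and 1 (background 1.58%), and 2 and 5 without E14 EpiLC.

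In ESC the members under that unadjusted threshold were Dub1, Klhl15, Sp110 and the Lgals4 and Lgals6 entry, which had higher values in Otx2-/-, and Chga, which had a lower one. Dub1 had a log2 difference of 1.36 (SE 0.33, unadjusted p = 0.005484, limma adjusted p = 1). In EpiLC they were Ppp1r1a and Rcan3 with higher values and Ccbl2, Cnn2, Ctsc, Npl, Tex2 and Trim25 with lower ones. Ctsc had a log2 difference of -1.3, Npl of -1.5 and Cnn2 of -0.95, with a limma adjusted p of 0.9603 for each. The median log2 difference of the 120 tested members was -0.09 in ESC against -0.03 for all genes, and -0.09 in EpiLC against 0.01. By rank alone, Otx2-/- ESC was above all 3 R1 and E14 ESC in 40 members (23.3%, background 14.9%) and below all 3 in 34 (19.8%, background 17.5%). Otx2-/- EpiLC was above all 3 R1 and E14 EpiLC in 42 members (24.4%, background 27.0%) and below all 3 in 56 (32.6%, background 26.4%).

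Differences between libraries of 1 condition were common among the members. Between the R1 ESC replicates, 11 of the 68 members with 5 FPKM in either were at least 2-fold higher in replicate 2 (background 5.42%) and 11 at least 2-fold lower (background 6.09%). The largest log2 ratios of replicate 2 to replicate 1 were 3.58 for Hipk3, 2.38 for Wfdc2, 2.14 for Apom, 2.08 for Fcgrt, 2.01 for Dazl and 1.99 for A2m on the one side. On the other they were -4.77 for Trh, -2.84 for Cd24a, -2.39 for Dgcr8, -1.98 for Rab38, -1.95 for Anxa1 and -1.78 for Nnat.

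Activin A separated few members. With activin A against without in R1 EpiLC, 1 of 52 members with 5 FPKM was at least 2-fold higher (Dgcr8, log2 ratio 2.35) and 2 were at least 2-fold lower, Igf2bp1 at -1.34 and Rn45s, which was listed at 0 (background 1.07% each way). Without dox, the tetON library and the Otx2-/- ESC library differed at least 2-fold in 11 of the 65 members with 5 FPKM in either. Gm11544 and Wfdc2 were higher in the tetON library, with log2 ratios of 1.19 and 1.14 (background 1.34%). The other 9 were lower in it, and were Hipk3, at -2.14, and the 8 entries listed at 0 (background 1.36%). The rule divides by the library without dox, so it favours genes that are low there, and these counts are a description.

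Gene lists of other programmes, most of whose genes are no members, were counted in the dox pair as well. Of 17 naive pluripotency genes, 7 were at least 2-fold lower with dox and none higher, with a median log2 ratio of -0.83. Of 14 primed and formative genes with 5 FPKM, 6 were at least 2-fold higher and 3 at least 2-fold lower. Of 15 p53 targets and 7 heat shock genes with 5 FPKM, none passed 2-fold in either direction, and of 15 genes of the integrated stress response 3 were higher and 2 lower. Interferon genes had 1 higher and 3 lower of 5. No gene of a fibroblast list reached 5 FPKM in the dox pair, where the list's summed level was 5.15 FPKM without dox and 4.37 with dox. The part of these programmes in the members' values was not tested.

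The members lay on many chromosomes, with 22 (12.8%) on chromosome 11, which holds 7.52% of all symbols. In 8 places neighbouring members lay within 100 kb of each other. The nearest were Pde1b and Ppp1r1a on chromosome 15, 226 bp apart, and Rcn3 and Fcgrt on chromosome 7, 779 bp apart. The others were Lcp1 and Cpb2, Gpcpd1 and AU019990, Apom and Lst1, Asgr2 and Clec10a, Rbm24 and Cap2, and Gm11544 and Gm11545. Of the 172 members, 16 overlapped another entry of the tables. The shares of all symbols with such a neighbour or overlap were not computed, so neither count is read as a trait of the members. The listed interval of each such member lay wholly within that of the other entry, which does not show whether exons are shared. The library preparation is not described as stranded, so reads of any shared exons cannot be assigned to 1 gene. Of the overlapping entries with at least 5 FPKM with dox, none was at least 2-fold higher on FPKM + 1. Below that level, B230206H07Rik, which overlaps Eps8l2, had 1.12 FPKM without dox and 3.36 with dox, Sp140, which overlaps Sp110, had 1.25 and 3.18, and Gm9899, which overlaps Kcnk3, had 0.0446 and 0.657.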

How the data were processed

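FPKM for each gene were computed and deposited by the authors, with TopHat and Cufflinks on mouse build mm9, per the submitters' processing notes. Their versions, annotation and settings were not given in the sources used here. Per the labels' protocols, poly(A) RNA was reverse transcribed with random hexamers, without mention of strand marking. Of 23112 entries per library, 17 exact repeats were dropped and 228 were summed into a shared symbol. FPKM are not counts, so depth was approximated from the 25th percentile of values above 0 in olfactory receptor genes.

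The members and gene lists were chosen with earlier results of these data known, and the role groups were written after the values were seen. Named members were the largest dox ratios, the highest levels with dox, members of lists, the lowest EpiLC ratios, the largest differences in each pair and the members at each threshold. Other members were named to illustrate a group, with their values seen.

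Differences of Otx2-/- from R1 and E14 were tested two-sided on log2(FPKM + 1) by limma 3.58.1 (R 4.3.3; eBayes, trend), keeping genes whose mean reached 1 FPKM, with Benjamini-Hochberg adjustment, after the code was tested on simulated data. On this scale a fold understates the change of low genes. The labels' protocols call the cultures independent, but a p measures only the spread between these few libraries, which includes line and activin A. Pairs of 1 library with 1 were counted at 2-fold with at least 5 FPKM in either, with no test. Alternatives were the thresholds, pseudocount, filters, scaling, a line covariate and leaving out each library. Tables were handled in Python 3.11.15 with pandas 2.3.3.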

Additional observations from a re-analysis of the deposited data

How the results depend on the processing

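The number of members was 284 with a dox ratio of at least 2, which held all 172, 81 with a ratio of at least 4, and between 158 and 182 when 1 R1 or E14 library was left out. In limma, no member was called under any setting tried, while counts over all genes moved. Without a filter on low values, genes higher numbered 29 in ESC, 53 in EpiLC and 37 in differentiation response, and genes lower in EpiLC 6. At a mean of at least 5 FPKM, 0 genes were higher in ESC, and 9 were higher and 2 lower in response (73 genes had an unadjusted p under 0.05 in ESC there). With line as a covariate, 5 were lower in EpiLC. Leaving out 1 library gave between 13 and 20 higher in ESC, between 5 and 10 lower in ESC, between 2 and 21 lower in EpiLC and between 13 and 23 lower in response. The 20 and the 5 lower in EpiLC came without R1 EpiLC with activin A, as did 20 lower in response. The 10 came without E14 ESC, and without E14 EpiLC there were 17 higher in ESC, 21 lower in EpiLC and 23 lower in response. Without a floor on FPKM, 25 members were lower in Otx2-/- EpiLC than ESC, 19 higher in R1 ESC replicate 2 and 5 higher without dox than in Otx2-/- ESC. Without entries listed at 0, an alternative added after seeing the data, 1 member was lower with activin A and 1 lower without dox. No paired analysis was possible because the compared groups share no replicate numbers from the labels. Single libraries in the dox pair and low FPKM limit the precision of members near 5 FPKM, and the cause of these changes was not tested.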
